A study of Mus musculus with 56 samples.

Results

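Mammary tumors with high expression of 5 hypoxia marker genes were compared with tumors of low expression of the same genes. The markers were Slc2a1, the glucose transporter GLUT1; Pgk1, phosphoglycerate kinase; Ldha, lactate dehydrogenase A; Vegfa, the vascular endothelial growth factor; and Bnip3, a mitophagy receptor. A tumor's hypoxia score was the mean log2 level of the 5, each read from the probe set of highest mean. Tumors were ranked by score within each host genotype. The 6 highest tumors of heterozygote hosts and the 8 highest of wild-type hosts formed the high-score group (14 tumors), and the 6 and 8 lowest formed the low-score group (14 tumors). These are 28 of the 56 tumors, and the other 28 ranked between. Oxygen was not measured, so the groups are called by score.

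All tumors grew from p53null mammary fragments, which were not irradiated, placed in inguinal fat pads of female BALB/c hosts whose own mammary epithelium had been cleared at 3 weeks of age. Hosts were irradiated or sham-irradiated 3 days before transplantation, and were either TGFb1 heterozygotes (Het hosts, 18 tumors after irradiation and 6 after sham) or wild-type (WT hosts, 23 tumors after irradiation and 9 after sham). In both score groups, the cells of a tumor that derive from the fragment therefore lack p53. Any host cells within a tumor, which bulk RNA would include, do not come from the p53null fragments. The high-score group held 3 tumors from irradiated Het, 3 from sham-irradiated Het, 5 from irradiated WT and 3 from sham-irradiated WT hosts. The low-score group held 5, 1, 6 and 2 in the same order. The labels give no radiation dose, tumor size or age at collection, nor whether 2 tumors came from 1 host, so p-values measure only the spread between these samples. Each tumor had 1 Affymetrix array of bulk RNA.

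When oxygen is scarce, the prolyl hydroxylases that mark HIF alpha subunits for degradation slow down, and HIF accumulates and binds hypoxia response elements whose core reads ACGTG or GCGTG. Its targets shift cells toward glycolysis, keep pyruvate out of mitochondria, export lactate and acid, and signal for new vessels. In solid tumors the response is typical of regions far from a perfused vessel.

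The groups were chosen by the measured levels of these 5 genes on the same arrays, so the score is given as a description only. In Het hosts the score had a lowest, median and highest value of 11.77, 11.96 and 12.06 in high-score tumors, against 10.79, 10.97 and 11.08 in low-score tumors. In WT hosts it was 11.81, 12.04 and 12.09 in high-score tumors, against 10.93, 10.96 and 11.14 in low-score tumors. The scores run on from one group to the next: in Het hosts the last tumor inside the high group scored 11.77 and the first outside it 11.75, and in WT hosts these were 11.809 and 11.804. At the low edge the last tumor inside and the first outside scored 11.08 and 11.09 in Het hosts, and 11.14 and 11.18 in WT hosts. Bnip3 spanned the widest distance between the group means. In Het hosts it averaged 11.63 ± 0.71 in high-score tumors and 9.74 ± 0.52 in low-score tumors (SD, n = 6 each). In WT hosts it averaged 11.67 ± 0.40 in high-score tumors and 10.12 ± 0.55 in low-score tumors (SD, n = 8 each). Ldha spanned the narrowest: in Het hosts it averaged 12.89 ± 0.19 in high-score tumors and 12.44 ± 0.24 in low-score tumors. Over the 56 arrays the markers correlated in pairs, after centring within host genotype, with Pearson values of 0.292 (Ldha with Vegfa) to 0.738 (Pgk1 with Ldha).

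**Figure D1:**
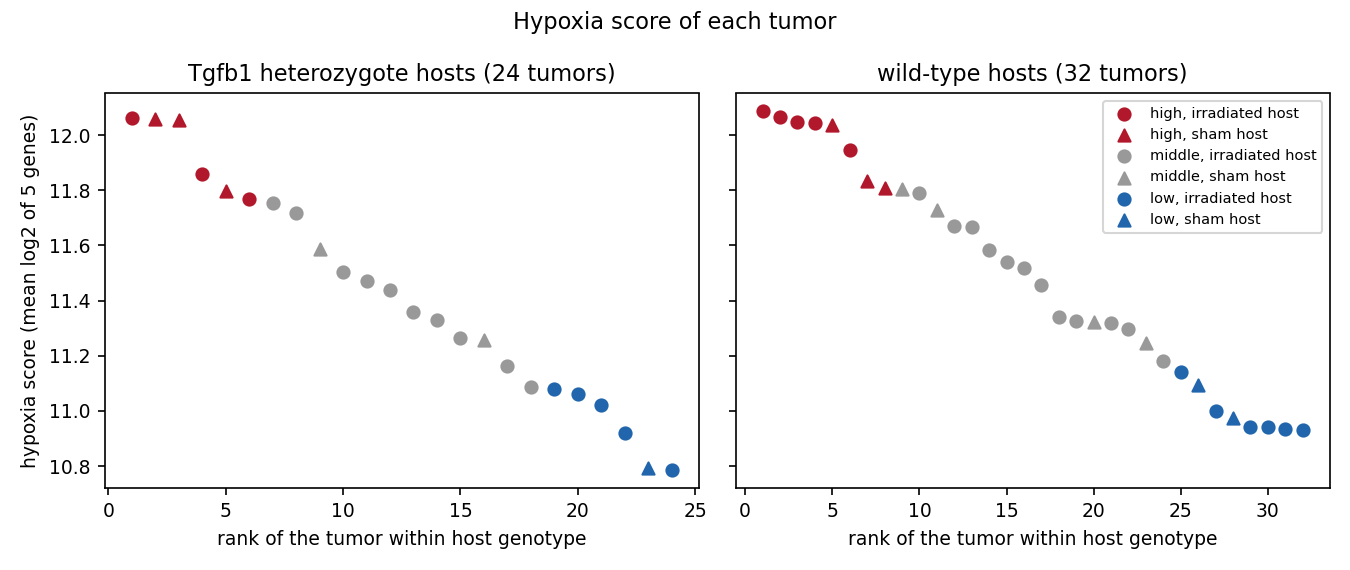
Hypoxia score (mean log2 level of 5 genes) of each of the 56 tumors against its rank within host genotype, for Het hosts on the left and WT hosts on the right, with circles for irradiated and triangles for sham-irradiated hosts. The scores form a continuous slope, and the high groups begin at 11.77 and 11.81 with no gap beneath them.

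The control probe sets of the arrays were compared first. The 18S ribosomal control averaged 12.17 ± 1.03 in high-score tumors and 11.67 ± 1.38 in low-score tumors (SD, n = 14 each; permutation p = 0.255 within host genotype, two-sided; 0.255 after Benjamini-Hochberg adjustment over the 2 controls). It lay below 11 in 1 of 14 high-score, 6 of 14 low-score and 2 of 28 other tumors. The 3' minus 5' difference of the actin and GAPDH controls, which grows as RNA degrades, averaged 0.239 ± 0.062 in high-score tumors and 0.333 ± 0.229 in low-score tumors (permutation p = 0.145, two-sided; adjusted 0.255). With the 7 arrays below 11 (a limit set after the values were seen) left out, 1 gene (Fam162a, log2 fold change 1.14) passed the test between the groups, and the direction of every gene named as changed below stayed the same.

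**Figure D2:**
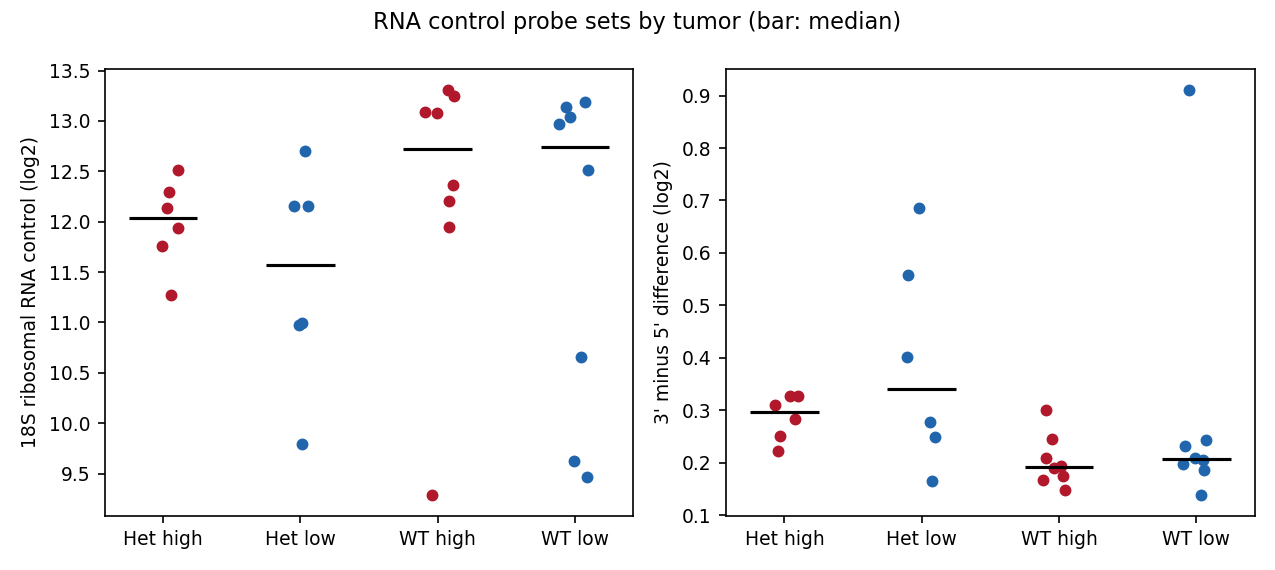
Log2 level of the 18S control (left) and the 3' minus 5' difference of the control probe sets (right) in each of the 28 tumors, by host genotype and score group, with bars at the medians. The low-score groups hold 6 of the 7 arrays with 18S below 11.

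Of 12503 genes tested by limma with host genotype as a block, 14 were higher (0.112%) and 6 were lower (0.048%) in high-score tumors at an adjusted p under 0.05. At an unadjusted p under 0.05 the counts were 504 higher and 474 lower. Of the 14 higher genes, 11 were members of the hypoxia-related lists described below, which hold none of the 5 markers. They encode mitochondrial proteins (Fam162a, Ak4, Higd1a), glycolytic and glycogen enzymes (Tpi1, Gys1, Pgm1, Pgam1) and the pyruvate dehydrogenase kinase Pdk1. The others of the 11 were the HIF hydroxylase Egln3, the HIF target Ankrd37 and the corepressor Rcor2. Outside the lists were Prelid2, Csnk1e and Mgarp, a dim mitochondrial gene that met the filter only because of high-score tumors. Of the 6 lower genes, 5 encode MHC class II chains or their invariant chain, and the sixth was Ly86. No gene separated the groups without overlap in both host genotypes (0% in either direction). Since the arrays hold bulk RNA, fewer cells of a type and less RNA per cell cannot be told apart for any of these genes.

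The label was checked with 5 lists of hypoxia-related genes that hold no marker of the score. Of their 101 measured members, 11 were higher (10.9%, against 0.112% of all genes) and 0 were lower. Their fold changes were positive for 76 of 101 (75.2%, against 50.9% of all genes), with a median log2 fold change of 0.22 against 0.004 over all genes. The lists were drawn up with earlier results of these data known, so the counts describe the groups and are not independent evidence that they differ in oxygen supply.

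**Figure D3:**
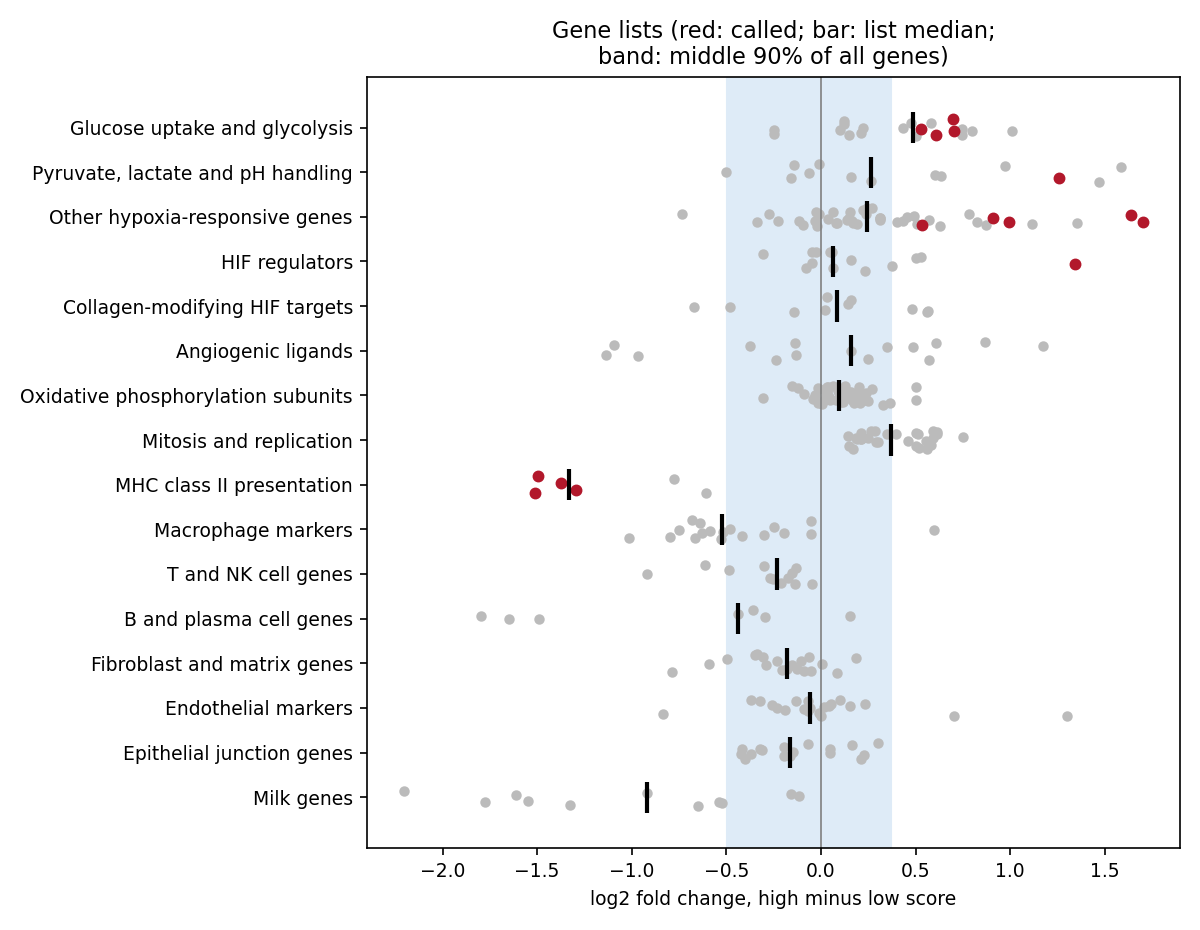
Log2 fold change of high-score over low-score tumors for each measured member of 16 gene lists, with red points for genes that passed the test, black bars at list medians and a band over the middle 90% of all genes (-0.50 to 0.37). Red points lie to the right in 4 hypoxia-related lists and to the left among the MHC class II genes.

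Fam162a, a mitochondrial protein induced by HIF-1, had the lowest p. In Het hosts its lowest, median and highest log2 levels were 11.28, 11.68 and 12.30 in high-score tumors, against 10.58, 10.71 and 11.57 in low-score tumors. The WT hosts' values were 11.28, 11.86 and 12.60 in high-score tumors, against 10.24, 10.86 and 11.89 in low-score tumors. In either genotype 1 low-score tumor stood well above the rest of its group and overlapped the high-score tumors. The log2 fold change was 0.99 (SE 0.16; 1.99-fold; adjusted p = 0.0091), and 14 of 14 high-score tumors lay above the low-score median of their genotype. Fam162a passed in each of the 28 fits that left out 1 array.

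The promoter of Fam162a is shown because it held the most core motifs among the promoters of the genes that passed. It covers 250 bases before to 50 after the RefSeq start site (GRCm38.p6, chr16:36071512-36071811, minus strand, printed 5′ to 3′ along the gene), and capitals mark the 6 matches to ACGTG or GCGTG on either strand, where CACGT and CACGC are the same motifs read on the other strand.
Fam162a: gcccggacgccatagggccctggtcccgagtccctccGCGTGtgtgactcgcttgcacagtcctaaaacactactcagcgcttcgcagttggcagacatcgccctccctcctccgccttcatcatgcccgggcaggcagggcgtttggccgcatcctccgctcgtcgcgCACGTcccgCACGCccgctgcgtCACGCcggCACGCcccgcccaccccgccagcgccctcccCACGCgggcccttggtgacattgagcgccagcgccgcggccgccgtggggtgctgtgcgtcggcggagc

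Ak4, a mitochondrial adenylate kinase, was 3.11-fold higher. In Het hosts its levels were 9.39, 10.07 and 10.95 (lowest, median, highest) in high-score tumors, against 6.28, 8.08 and 8.91 in low-score tumors. In WT hosts they were 9.30, 9.77 and 10.44 in high-score tumors, against 6.62, 8.75 and 9.42 in low-score tumors. The groups did not overlap in Het hosts and overlapped slightly in WT hosts. The log2 fold change was 1.64 (SE 0.27; adjusted p = 0.0091), with 2.14 in Het and 1.26 in WT hosts.

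Higd1a, a small inner-membrane protein induced by hypoxia, was 1.88-fold higher (log2 fold change 0.91, SE 0.15, adjusted p = 0.0091). In Het hosts its levels were 10.86, 11.51 and 12.01 in high-score tumors, against 10.18, 10.32 and 11.17 in low-score tumors, and the groups overlapped. In WT hosts they were 10.80, 11.14 and 12.56 in high-score tumors, against 10.20, 10.45 and 10.76 in low-score tumors, with no overlap. Mgarp, a mitochondrial protein linked to organelle transport, was 3.16-fold higher (log2 fold change 1.66, SE 0.29, adjusted p = 0.0107). Its probe set was dim: only 14 of 56 arrays exceeded the median of all values, 5.83. Every low-score tumor lay under that median, and most arrays above it were of high-score tumors. Without the high-score tumors Mgarp would not have met the filter of 6 arrays, so its call is a description only. The size of its fold change therefore rests on dim low-score levels. Its levels in Het hosts were 5.46, 6.28 and 6.81 in high-score tumors, against 4.17, 4.34 and 4.96 in low-score tumors, and the groups did not overlap. In WT hosts they were 5.33, 6.15 and 9.53 in high-score tumors, against 4.53, 5.06 and 5.45 in low-score tumors, and overlapped.

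Ankrd37, an ankyrin-repeat protein and HIF target, had the largest log2 fold change of the 14 higher genes, 1.70 (SE 0.33; 3.25-fold; adjusted p = 0.0270). In Het hosts its levels were 7.71, 8.32 and 8.53 in high-score tumors, against 5.15, 6.55 and 7.99 in low-score tumors. Tumors of WT hosts had 6.58, 8.76 and 10.32 in the high-score group, against 5.12, 7.12 and 7.98 in low-score tumors. The groups overlapped in both genotypes, while 13 of 14 high-score tumors exceeded the low-score median. Its promoter (GRCm38.p6, chr8:45999801-46000100, minus strand) is shown with its 4 core matches in capitals, 2 of which overlap.
Ankrd37: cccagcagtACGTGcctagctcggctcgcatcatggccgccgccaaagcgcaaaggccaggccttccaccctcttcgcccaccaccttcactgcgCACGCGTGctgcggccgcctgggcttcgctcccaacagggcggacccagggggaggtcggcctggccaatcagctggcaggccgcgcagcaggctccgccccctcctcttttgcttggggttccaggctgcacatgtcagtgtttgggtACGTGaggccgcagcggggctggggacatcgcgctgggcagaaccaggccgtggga

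Among glucose uptake and glycolysis genes other than the markers, 4 of 20 measured members were higher, against 0.112% of all genes, and 0 were lower. Their log2 fold changes were positive for 18 of 20, against 50.9% of all genes, with a median of 0.49 (0.41 in Het and 0.51 in WT hosts). Tpi1, triosephosphate isomerase, had levels in Het hosts of 12.72, 13.08 and 13.52 in high-score tumors, against 11.94, 12.42 and 12.72 in low-score tumors. The WT hosts gave 12.79, 13.05 and 13.51 in high-score tumors, against 11.77, 12.46 and 13.12 in low-score tumors. The groups met without overlap in Het hosts and overlapped in WT hosts. Its log2 fold change was 0.70 (SE 0.13; 1.63-fold; adjusted p = 0.0215).

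Gys1, muscle-type glycogen synthase, had levels in Het hosts of 8.43, 9.10 and 9.53 in high-score tumors, against 7.84, 8.23 and 8.49 in low-score tumors. WT hosts gave 8.61, 9.31 and 10.05 in high-score tumors, against 8.35, 8.68 and 8.87 in low-score tumors, and the groups overlapped in both genotypes. Gys1 was higher by a log2 fold change of 0.70 (SE 0.13, adjusted p = 0.0245). Pgm1, phosphoglucomutase, which links glycogen and glycolysis, was higher by 0.61 (SE 0.12, adjusted p = 0.0397). Pgam1, phosphoglycerate mutase, was higher by 0.53 (SE 0.11, adjusted p = 0.0397). In each of the 3, 13 or 14 of 14 high-score tumors lay above the low-score median. Pgm1 and Pgam1 each passed in 10 of the 28 fits that left out 1 array, and Gys1 in 26. Members that did not pass included Pfkp, the platelet-type phosphofructokinase, at 0.75 (adjusted p = 0.0604) and Aldoa, aldolase A, at 0.47 (adjusted p = 0.0810). Gapdh had a log2 fold change of 0.22 (adjusted p = 0.352).

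Of 13 genes of pyruvate, lactate and acid handling, only Pdk1 passed, against 0.112% of all genes higher. Fold changes were positive for 8 of 13, against 50.9% of all genes, with a median of 0.26. Pdk1 phosphorylates pyruvate dehydrogenase and so limits the entry of pyruvate into the citric acid cycle. In Het hosts its levels were 8.98, 9.61 and 10.24 in high-score tumors, against 7.07, 7.52 and 8.31 in low-score tumors, without overlap. In WT hosts they were 8.51, 9.07 and 10.31 in high-score tumors, against 7.09, 8.57 and 9.40 in low-score tumors, and the groups overlapped. The log2 fold change was 1.26 (SE 0.24; 2.40-fold; adjusted p = 0.0215). Its promoter (GRCm38.p6, chr2:71872974-71873273, plus strand) held 2 core matches, in capitals, and a second RefSeq window of the gene held 0.
Pdk1: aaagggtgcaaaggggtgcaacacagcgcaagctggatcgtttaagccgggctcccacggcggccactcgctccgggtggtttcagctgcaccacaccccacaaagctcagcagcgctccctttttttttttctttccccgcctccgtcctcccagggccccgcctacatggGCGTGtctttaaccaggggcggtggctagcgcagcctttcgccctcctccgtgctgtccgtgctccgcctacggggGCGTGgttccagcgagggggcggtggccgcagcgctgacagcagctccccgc

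The acid and lactate exporting genes Car9 and Slc16a3 varied widely among high-score tumors. Car9, carbonic anhydrase IX, had levels in Het hosts of 5.74, 7.98 and 9.95 in high-score tumors, against 4.82, 5.82 and 6.89 in low-score tumors. WT hosts had levels of 4.79, 7.49 and 10.01 in high-score tumors, against 5.72, 6.36 and 7.24 in low-score tumors. The brightest high-score tumors exceeded every low-score tumor, but the dimmest lay within or under the low-score range, and the log2 fold change of 1.59 did not pass (adjusted p = 0.273). Slc16a3, the lactate exporter MCT4, had a log2 fold change of 1.47 (adjusted p = 0.0728), and 12 of 14 high-score tumors lay above the low-score median. Its levels in Het hosts were 5.16, 6.70 and 8.19 in high-score tumors, against 4.75, 5.39 and 7.23 in low-score tumors. WT hosts gave 5.53, 7.49 and 9.42 in high-score tumors, against 5.33, 5.54 and 6.36 in low-score tumors, so the groups overlapped in both genotypes.

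In the oxygen-sensing list 1 of 14 members passed, Egln3, against 0.112% of all genes higher. Fold changes were positive for 9 of 14, against 50.9% of all genes, with a median of 0.06. Egln3 is a HIF prolyl hydroxylase that is itself induced by HIF. Its levels in Het hosts were 8.94, 10.36 and 10.93 in high-score tumors, against 6.85, 8.29 and 9.34 in low-score tumors. For WT hosts they were 9.52, 10.09 and 11.90 in high-score tumors, against 8.71, 9.44 and 10.29 in low-score tumors. The groups overlapped in both genotypes. The log2 fold change was 1.34 (SE 0.29; 2.53-fold; adjusted p = 0.0462), and it passed in 5 of the 28 fits that left out 1 array. The transcripts of the HIF alpha subunits did not pass: Hif1a had a log2 fold change of 0.53 (adjusted p = 0.534) and Epas1, which encodes HIF-2 alpha, -0.31 (adjusted p = 0.864). Egln1, the main HIF hydroxylase, had 0.50 (adjusted p = 0.334). The Egln3 promoter (GRCm38.p6, chr12:54203825-54204124, minus strand) held 1 core match, in capitals.
Egln3: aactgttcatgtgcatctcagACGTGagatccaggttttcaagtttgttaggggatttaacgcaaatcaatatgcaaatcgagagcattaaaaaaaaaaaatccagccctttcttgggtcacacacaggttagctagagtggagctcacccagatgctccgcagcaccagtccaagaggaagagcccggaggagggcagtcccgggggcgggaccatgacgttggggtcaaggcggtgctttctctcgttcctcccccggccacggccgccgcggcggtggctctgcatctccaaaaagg

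Other hypoxia-responsive genes had 34 of 44 fold changes positive, against 50.9% of all genes, with a median of 0.24. Of the 44 measured members 5 were higher, against 0.112% of all genes, and 0 were lower. The 5 were Fam162a, Ak4, Higd1a, Ankrd37 and Rcor2, a corepressor that binds the histone demethylase LSD1. Rcor2 had levels in Het hosts of 7.18, 7.57 and 7.96 in high-score tumors, against 6.48, 6.90 and 7.09 in low-score tumors, without overlap. Its groups overlapped in WT hosts, and the log2 fold change was 0.53 (SE 0.11, adjusted p = 0.0405); it passed in 10 of the 28 fits that left out 1 array. Adm, the vasodilator peptide adrenomedullin, had 1.35 and did not pass (adjusted p = 0.104). Of 10 collagen-modifying HIF targets 0 passed in either direction, with a median of 0.09 (-0.04 to 0.46 over 23 alternative settings). P4ha1, a collagen prolyl hydroxylase, had 0.56 (adjusted p = 0.508). Higher genes outside all the lists were Mgarp, Prelid2 and Csnk1e. Prelid2 had levels in Het hosts of 7.54, 8.39 and 9.45 in high-score tumors, against 6.57, 7.46 and 7.97 in low-score tumors. WT hosts gave 8.27, 8.65 and 9.82 in high-score tumors, against 6.12, 7.72 and 8.39 in low-score tumors. The groups overlapped in both genotypes, and the log2 fold change of Prelid2 was 1.15 (SE 0.22, adjusted p = 0.0245). Csnk1e, casein kinase 1 epsilon of the circadian clock, had 0.57 (SE 0.12, adjusted p = 0.0447). Another probe set of Csnk1e gave a mean difference of 0.40, while its dimmest gave -0.002, so its probe sets disagree in part. Csnk1e passed in 7 of the 28 fits that left out 1 array.

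**Figure D4:**
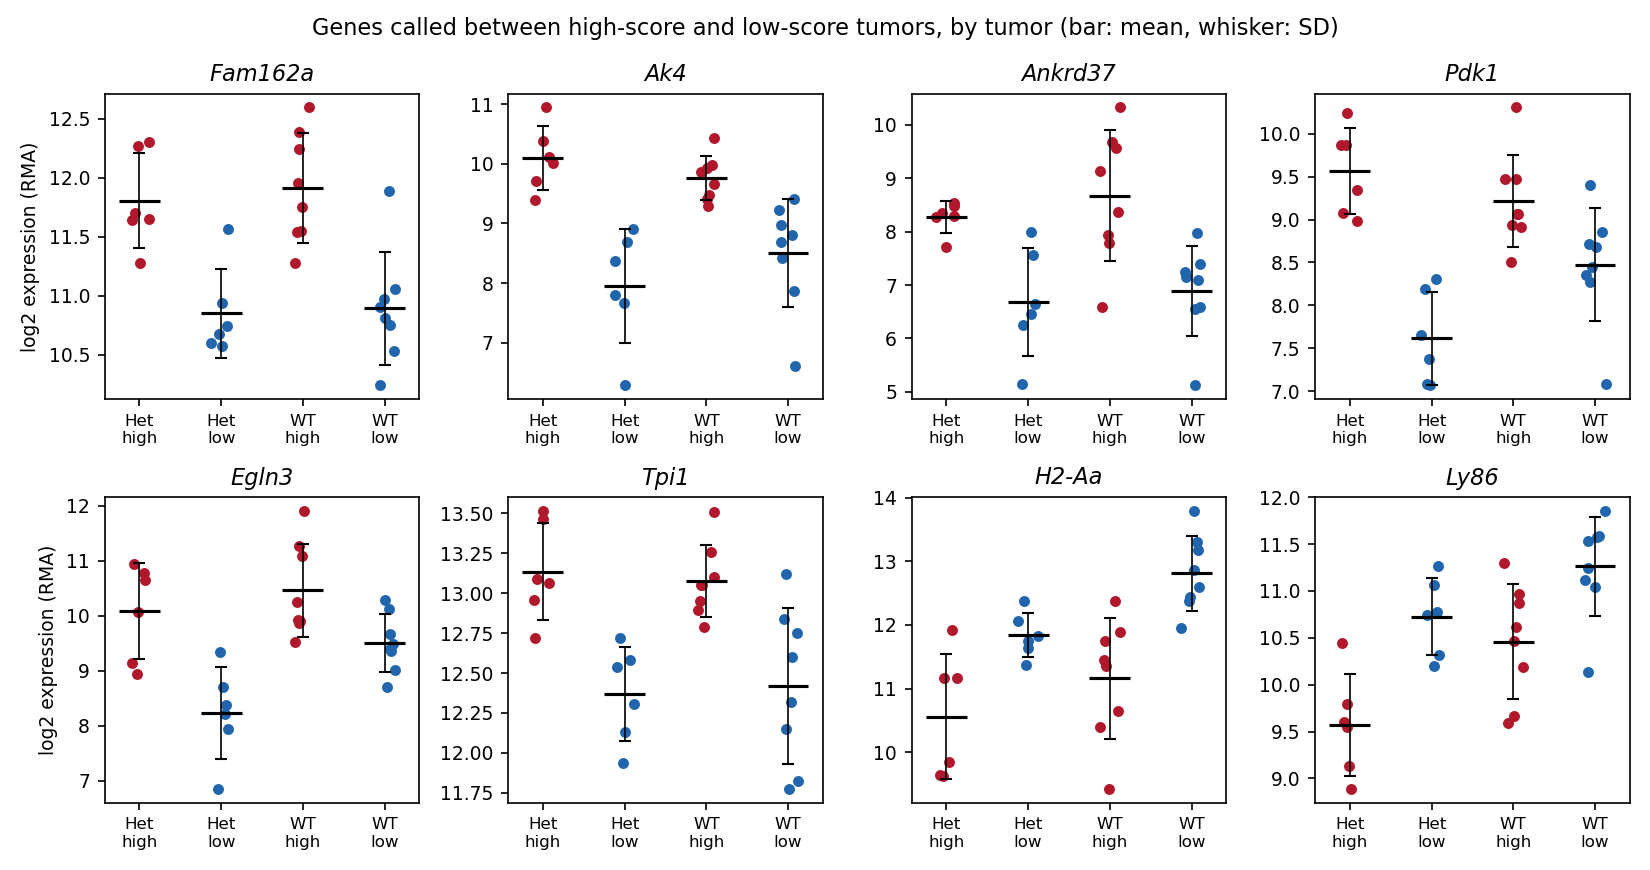
Log2 level of 8 of the 20 genes that passed, in each of the 28 tumors, by host genotype and score group, with bars at means and whiskers of 1 SD. Ak4, Pdk1 and Tpi1 separate the groups in Het hosts only, and H2-Aa and Ly86 run the other way with overlap.

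The core motif was present in the promoter window of 11 of 13 higher genes that had one (84.6%), of 0 of 3 lower genes and of 5 of 5 markers, against 6724 of 10050 tested genes (66.9%). Tpi1 and Gys1 had no match in their windows. The higher genes' windows averaged 65.5% GC, against 60.5% over all tested genes and 49.7% for the lower genes. Base composition was not matched, and a match does not show binding.

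MHC class II genes were lower in high-score tumors. Of 6 measured members of that list 4 were lower, against 0.048% of all genes, and 0 were higher. The median log2 fold change was -1.33 (-1.15 in Het and -1.48 in WT hosts), against 0.004 over all genes. H2-Aa encodes the alpha chain of I-A, which presents peptides to CD4 T cells. Its levels in Het hosts were 9.62, 10.50 and 11.92 in high-score tumors, against 11.37, 11.79 and 12.38 in low-score tumors. In WT hosts they were 9.42, 11.40 and 12.38 in high-score tumors, against 11.96, 12.73 and 13.79 in low-score tumors. The groups overlapped in both genotypes, and 1 of 14 high-score tumors lay above the low-score median. The log2 fold change was -1.49 (SE 0.28; adjusted p = 0.0215). The probe sets of H2-Aa, H2-Ea and H2-Ab1 are of types that can match more than 1 transcript, so these genes may not be independent readings.

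H2-Eb1, the beta chain of I-E, was lower, with a log2 fold change of -1.51 (SE 0.31, adjusted p = 0.0397). H2-Ea, its alpha chain, had -1.44 (SE 0.28, adjusted p = 0.0245), and H2-Ab1, the beta chain of I-A, -1.37 (SE 0.29, adjusted p = 0.0462). Cd74, the invariant chain that escorts class II molecules, had levels in Het hosts of 10.06, 10.77 and 12.43 in high-score tumors, against 11.60, 12.16 and 12.57 in low-score tumors. WT hosts gave 9.91, 11.76 and 12.72 in high-score tumors, against 12.20, 12.99 and 13.88 in low-score tumors, and the groups overlapped in both genotypes. Its log2 fold change was -1.29 (SE 0.27, adjusted p = 0.0444). Of the 28 fits that left out 1 array, H2-Aa passed in 26, H2-Ea in 23, H2-Eb1 in 12, Cd74 in 10 and H2-Ab1 in 8. Ciita, the master activator of class II genes, had -0.61 and did not pass (adjusted p = 0.395), nor did H2-DMa, which helps load peptides, at -0.77 (adjusted p = 0.381). The H2-Aa promoter (GRCm38.p6, chr17:34287774-34288073, minus strand) is shown as that of a lower gene, with 0 core matches and so no capitals. The higher genes Tpi1 and Gys1 also had 0 matches.
H2-Aa: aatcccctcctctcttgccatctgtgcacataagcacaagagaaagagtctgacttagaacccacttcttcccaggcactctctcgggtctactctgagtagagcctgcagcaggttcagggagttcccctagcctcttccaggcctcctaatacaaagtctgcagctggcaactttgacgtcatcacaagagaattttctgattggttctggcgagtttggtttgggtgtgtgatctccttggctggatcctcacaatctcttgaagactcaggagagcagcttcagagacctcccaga

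Ly86, or MD-1, the partner of the B cell and macrophage receptor CD180, was lower as well. Its levels in Het hosts were 8.89, 9.58 and 10.45 in high-score tumors, against 10.20, 10.76 and 11.27 in low-score tumors. For WT hosts the levels were 9.59, 10.54 and 11.30 in high-score tumors, against 10.14, 11.39 and 11.85 in low-score tumors. The groups overlapped, with 0 of 14 high-score tumors above the low-score median, and the log2 fold change was -0.95 (SE 0.20, adjusted p = 0.0397). Ly86 passed in 9 of the 28 fits that left out 1 array. Genes just short of the threshold included the acyltransferase Mboat2 at 0.93 (adjusted p = 0.0501). On the negative side Cd83, a marker of mature dendritic cells, had -0.96 (adjusted p = 0.0645), the NADPH oxidase subunit Cybb -0.91 (adjusted p = 0.0676) and the Fc receptor Fcgr4 -0.89 (adjusted p = 0.0604).

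Macrophage, lymphocyte and plasma cell markers had mostly negative fold changes, without passing. Of 18 macrophage markers 0 passed, 17 had negative fold changes and the median was -0.52 (-0.95 in Het and -0.31 in WT hosts). Over all genes 50.9% of fold changes were positive. In Het hosts the mean level of the 18 ranged between 8.60 and 9.83 in high-score tumors, against 9.45 and 10.88 in low-score tumors. In WT hosts it ranged between 8.71 and 10.80 in high-score tumors, against 9.67 and 10.32 in low-score tumors. All 18 averaged above the median of all values. Among 7 B and plasma cell genes 0 passed and 6 were negative, with a median of -0.44, which was -1.48 under joint quantile normalization and -1.49 under a stricter filter. The immunoglobulin heavy chain Ighm had -1.49 (adjusted p = 0.199), or -0.57 with its probe sets averaged. Among 12 T and NK cell genes 0 passed and 12 were negative, with a median of -0.23. Of these 12 genes 6 averaged below the median of all values, as did 2 of the 7 B and plasma cell genes. The 14 neutrophil genes had a median of -0.06 with 6 positive (-0.21 to 0.38 over the 23 alternative settings). The 5 mast cell genes, all of which averaged below the median of all values, had 0.17 with 4 positive. In either list 0 passed. With the macrophage markers' mean added to the fit, 0 genes passed (952 at an unadjusted p under 0.05), H2-Aa had -1.32 and Ly86 -0.61. This fit was chosen after seeing the data, and the markers added were themselves mostly lower in high-score tumors. It therefore cannot show the part of these cells in the class II result, which was not tested.

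**Figure D5:**
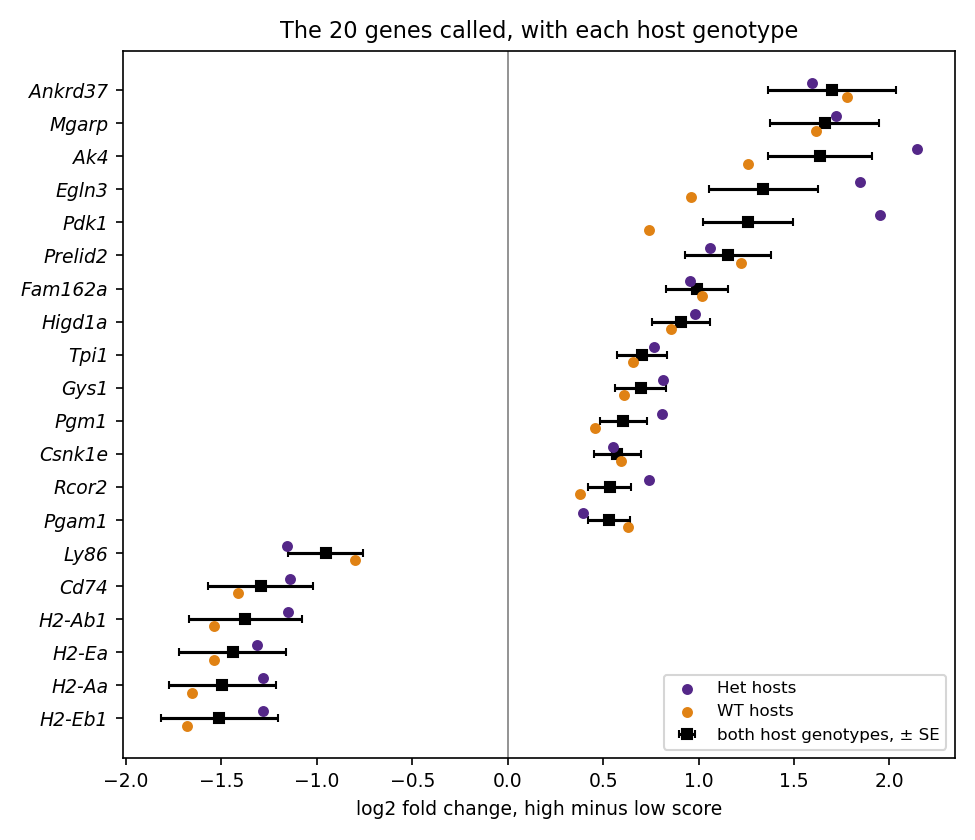
Log2 fold change of high-score over low-score tumors for the 20 genes that passed, with black squares and whiskers for both host genotypes together (± SE), purple points for Het hosts and orange points for WT hosts. Each gene has the same direction in both genotypes, and the points lie farthest apart for Pdk1, at 1.95 in Het and 0.74 in WT hosts.

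Proliferation genes were positive throughout their list, without passing. All 28 measured mitosis and replication genes had positive log2 fold changes (50.9% of all genes did), from 0.14 to 0.75, with a median of 0.37, and 0 passed. Aurka, a spindle kinase, had 0.75 (adjusted p = 0.478), and Cdc20, an activator of the anaphase-promoting complex, 0.50 (adjusted p = 0.403). Their mean level in Het hosts ranged between 9.24 and 9.98 in high-score tumors, against 8.17 and 9.88 in low-score tumors. In WT hosts it ranged between 9.13 and 10.37 in high-score tumors, against 8.35 and 10.11 in low-score tumors. With that mean added to the fit 0 genes passed (598 at an unadjusted p under 0.05), while Ak4 had 1.73 and Fam162a 0.86. Of 47 oxidative phosphorylation genes, 38 were positive with a median of 0.10, and 0 passed.

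Vessel genes did not pass in either direction. Of 15 angiogenic ligands besides Vegfa, 8 were positive (50.9% of all genes were), with a median of 0.16. That median lay between -0.13 and 0.31 over the 23 alternative settings. Pgf, placental growth factor, had a log2 fold change of 1.17 (adjusted p = 0.587), and Angpt1, a vessel-stabilising ligand, -1.10 (adjusted p = 0.579). The 21 endothelial markers had a median of -0.06, with -0.94 in Het and 0.67 in WT hosts, and between -0.50 and 0.45 over those settings. Esm1, an endothelial gene induced by VEGF, had 1.30 (adjusted p = 0.403).

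Epithelial and stromal lists had 0 members past the test. The 17 epithelial junction genes had a median of -0.16, with 0.73 in Het and -0.78 in WT hosts, and between -1.002 and 0.07 over the alternatives. In WT hosts their mean level ranged between 6.59 and 11.21 in high-score tumors, against 6.35 and 11.14 in low-score tumors. The 11 milk genes were all negative with a median of -0.92 (-2.01 to -0.65 over the alternatives) and 0 passing. Csn2, beta-casein, had -1.77 (adjusted p = 0.543). Fibroblast and matrix genes had a median of -0.18 over 19, which lay between -0.89 and 0.23 over the alternatives, and adipocyte genes -0.20 over 12 (-0.49 to -0.11), with 0 passing in each. In all, 30 of 35 lists had 0 members past the test, with medians from -0.92 to 0.74, the highest from the single erythroid gene measured, Alas2.

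Within one host genotype few genes passed. In Het hosts 1 gene was higher (0.008%; 966 genes at an unadjusted p under 0.05), Pdk1 (1.95, adjusted p = 0.0250), which did not pass when the Het arrays were fitted alone (0 genes). In WT hosts 0 passed (0%; 591 at an unadjusted p under 0.05). The difference between the genotypes passed for 0 genes (0%; 539 at an unadjusted p under 0.05). For Pdk1 it was 1.21 (Het minus WT, adjusted p = 0.891), and for Ak4 0.89 (adjusted p = 0.891), so a difference between hosts was not shown. The genes of lowest p in that test were Tnfsf8 (Het minus WT 2.49), AU018091 (2.27) and Susd4 (1.59), and in the other direction Zfp36l2 (-1.10), Fer (-0.86) and Cdr2 (-1.44), each with an adjusted p of 0.891.

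The 28 tumors ranked between the groups were not used to choose the 20 genes. They were ranked by the same score that chose the groups, so their slopes are a description and not independent support. Among these 28 tumors the slope on the score was positive for 13 of 14 higher genes, the exception being Rcor2 at -0.06 log2 per unit of score. It was negative for 6 of 6 lower genes, most of which are MHC class II genes. Over all genes the slope had the sign of the fold change in 6733 of 12503 (53.9%). Slopes were 1.45 for Ankrd37, 0.80 for Egln3, 0.66 for Higd1a and 0.42 for Fam162a. They were -0.90 for H2-Aa and -1.03 for Ly86. No single slope passed (0%; 946 at an unadjusted p under 0.05). The macrophage list had 0 of 18 positive slopes there, with a median of -0.81. The glycolysis list had 16 of 20, with a median of 0.27. Over all genes 6057 of 12503 slopes were positive. Other lists with 0 positive slopes included skeletal muscle (0 of 15, median -2.38), interferon-stimulated (0 of 17, -1.28) and T and NK cell genes (0 of 12, -0.58). In some lists the median slope ran against the median fold change. Milk genes had 0.29 against -0.92, and collagen-modifying HIF targets -0.55 against 0.09.

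Host irradiation was compared across all 56 tumors. In Het hosts the score averaged 11.37 ± 0.36 in irradiated hosts (SD, n = 18) and 11.59 ± 0.49 in sham-irradiated hosts (SD, n = 6), a difference of -0.22 (exact permutation p = 0.241, two-sided; 0.482 after Benjamini-Hochberg adjustment over 2 comparisons). In WT hosts it averaged 11.47 ± 0.40 in irradiated hosts (SD, n = 23) and 11.54 ± 0.38 in sham-irradiated hosts (SD, n = 9), a difference of -0.07 (exact permutation p = 0.650, two-sided; adjusted 0.650). Irradiated hosts carried 8 of 14 high-score tumors and 11 of 14 low-score tumors. With host irradiation as a term, 4 genes stayed higher (Fam162a, Ak4, Higd1a and Mgarp) and 0 lower, and H2-Aa had -1.49 (adjusted p = 0.0590). Mgarp among them met the filter only because of high-score tumors.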

How the data were processed

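The authors deposited one table of log2 expression values, made by RMA from single-colour Affymetrix arrays per the submitters' processing notes, with 100 ng of RNA per array per the labels, with no version stated there. Array medians were 5.57 to 5.71 in Het and 5.92 to 6.00 in WT hosts, so host genotype was a block throughout. Precision is limited by the number of arrays, and signal over background per array was not analysed here. The highest correlation between 2 arrays was 0.990, so none was merged.

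Of 45101 probe sets, 34958 had 1 gene symbol, 932 had several and 9211 were unnamed here. Probe sets that exceeded 5.83, the median of all values, on 6 or more arrays were kept, and the one of highest mean stood for a gene; 12462 of 12503 tested genes matched RefSeq (GRCm38.p6), which also gave the promoters. The array's build is not given, so coordinates are RefSeq's alone. limma 3.58.1 (R 4.3.3) was fitted to 12508 genes on the 28 arrays; the 5 score genes were left out of the Benjamini-Hochberg adjustment. Slopes used the other 28 arrays. Single values were tested by permutation (exact, or 100000 resamples). On simulated data for this comparison (12508 genes, 200 changed), the fit found 45.2% of 1.5-fold, 75.8% of 2-fold and 96.0% of 4-fold changes, and 1.61% of its calls were false. There, deviations from the group means were shuffled between arrays within host genotype, so the groups were not chosen by expression as the real ones were. More genes were also changed than passed in the real data. These shares therefore need not hold for the real comparison.

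The members, the 35 lists (547 genes measured) and the named genes were chosen with earlier results of these data known. Named were the 15 genes of lowest p per direction that passed. Up to 5 members of lowest p per list were named, as were members described by role. For the difference between genotypes, up to 3 genes per direction were named. Csnk1e's other probe sets and genes near the threshold (Mboat2, Cd83, Cybb, Fcgr4) were picked after their values were seen. The check of the deleted gene is not reported here. Alternatives varied the filter, probe set, normalization, group size, score genes, covariates and arrays.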

Additional observations from a re-analysis of the deposited data

Results flagged for a closer look

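Outlying tumors were sought in 90 sets of tumors. A set was a gene or control in 1 host genotype and score group, or the score in sham-irradiated hosts of 1 genotype. Of the 90, 7 had a highest or lowest tumor farther from the rest than Dixon's 95% limit (7.78%, where chance gives about 1 in 20). Higd1a reached 12.56 in irradiated WT replicate 16 (high score), with the next at 11.60. Ankrd37 was lowest at 7.71 in sham-irradiated Het replicate 15 (high score), with the next at 8.27. Pgam1 was lowest at 11.54 in irradiated Het replicate 32 (high score), with the next at 12.04. Fam162a reached 11.57 in irradiated Het replicate 29 (low score), with the next at 10.94. Csnk1e was lowest at 8.93 in irradiated Het replicate 7 (low score), with the next at 9.42. The 18S control was lowest at 9.28 in sham-irradiated WT replicate 64 (high score), with the next at 11.95. The 3' minus 5' difference reached 0.911 in irradiated WT replicate 57 (low score), with the next at 0.244.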

How the results depend on the processing

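All 20 genes kept their direction under every alternative run (Mgarp was not tested under the stricter filter), while their number moved. Against 14 higher and 6 lower, the counts were 9 higher and 2 lower after adding 18S as a term, 4 and 0 after adding host irradiation, 43 and 80 as a slope over all 56 arrays, 10 and 0 with the score without Pgk1, 4 and 0 without Ldha, and 1 and 0 without Bnip3. The lower genes numbered 16 with the epithelial junction list as a covariate and 10 with a score of z-scores. With groups of 4 WT and 3 Het tumors a side 0 genes passed limma's test (820 at an unadjusted p under 0.05). Chosen after seeing the data, fits without the 7 arrays of low 18S gave 1 and 0, with 18S and the 3' minus 5' difference together 9 higher, with the macrophage list 0 and 0, and with the mitosis list 0 and 0. Leaving out 1 array gave 4 to 20 higher and 0 to 13 lower genes; the counts were 4 and 0 without sham-irradiated Het replicate 19 and again without sham-irradiated Het replicate 52. The higher count also moved by over 1.5 times without irradiated WT replicates 16, 24 or 40, sham-irradiated Het replicate 15, or irradiated Het replicates 7 or 55. The lower count did so without any of 18 of the 28 arrays; the other 10 were sham-irradiated WT replicates 31, 46, 64 and 65, irradiated WT replicates 11 and 57, sham-irradiated Het replicate 58 and irradiated Het replicates 4, 29 and 50. Without irradiated WT replicate 25 it was 13, and without sham-irradiated WT replicate 17 it was 12. Fam162a, Ak4, Higd1a and Mgarp passed without any one array, though Mgarp met the filter only because of high-score tumors. Pdk1 in Het hosts did not pass with only the Het arrays fitted (0 genes). Among genes and scores, direction turned for the Epas1 log2 fold change, at 0.00097 with the mitosis list, and for the irradiated minus sham score difference in WT hosts, at 0.032 without Bnip3. List medians changed sign in at least 1 of the 23 other settings or with 1 array left out for 18 of 35 lists, among them angiogenic ligands, collagen-modifying, endothelial, epithelial junction, fibroblast, neutrophil and mast cell genes; 17 changed sign in none of these, among them glycolysis, mitosis, MHC class II, macrophage and milk genes. The fold changes of the 20 genes lay between 0.397 (Rcor2, median split) and 1.48 times (Higd1a, smaller groups) the reported values. The causes were not tested. No paired analysis was possible because replicate numbers do not recur across groups.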
